A study of Sus scrofa with 18 samples.

Results

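The genes described here encode kinesins, CENP-named centromere proteins, and condensin, cohesin and SMC5/6 subunits, together with genes named for association with the cell division cycle (CDCA). The rule for membership reads the gene symbol and no measured value: a numbered KIF or KIFC symbol, CENP with a letter, NCAPD, NCAPG or NCAPH, a numbered SMC, or a numbered CDCA. The array's annotation gave 58 such genes among 12362 genes with a single symbol. For the 4 of them with more than 1 probe set (CDCA5, CDCA7L, CENPJ and KIF21A), the brightest by its mean over the 18 arrays was taken. One of the 58, KIF1BP, encodes a protein that binds kinesins and is not a motor itself.

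Total RNA came from LLC-PK1, a line of epithelial cells from pig kidney that had been grown past confluence and given all-trans retinoic acid (ATRA), the ligand of the nuclear retinoic acid receptors. There were 3 biological replicates at each of 6 times: 0, 0.5, 1, 4, 8 and 12 h of ATRA. The 0 h arrays were the control for every later time, and with no untreated arrays at the later times, ATRA and time in culture cannot be told apart. All groups came from the same single cell line, and the labels name no genotype other than that of the line.

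Mitosis needs microtubule motors that build the spindle and move chromosomes, kinetochores assembled on centromeric chromatin that hold the microtubules, condensin to compact the chromosomes, and cohesin to hold sister chromatids together until anaphase. Many of these genes are transcribed mainly in late S, G2 and M phase, so their transcript levels in a population follow how many of its cells are dividing. Other kinesins carry vesicles, organelles and ciliary cargo in cells that do not divide, and a confluent kidney epithelium uses them for polarised transport and for the primary cilium. Cohesin and the SMC5/6 complex also act on interphase chromosomes.

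By role, the genes comprised 11 mitotic kinesins, 19 other kinesins, 11 proteins of centromeric chromatin and the constitutive centromere-associated network (CCAN, the inner kinetochore), 1 outer kinetochore protein (CENPF), 2 other CENP-named genes, 3 condensin subunits, 4 cohesin or SMC5/6 subunits, 6 CDCA genes and KIF1BP. KIF2B, of the same family as the mitotic kinesin KIF2C, was counted with the other kinesins. CENPE, NCAPH, NCAPD2, NCAPD3, NCAPG2, SMC2 and CDCA8 were not analysed here. Signals are given on the log2 scale on which they were deposited, where a difference of 1 is a doubling. Mean signals ran from 2.76 for KIF6 to 11.6 for KIF5B, with a median of 6.84. For 15 genes the mean lay under the lowest array median, 5.59, and for 6 of these it lay under 5, where the lack of a call says little. Probe sets differ in brightness, so levels are compared between arrays and not between genes.

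Array medians lay between 5.59 and 5.67, and arrays of the same time correlated with r between 0.982 and 0.995 over all probe sets. All 11 measured markers of proximal tubule epithelium lay above the highest array median, with KRT8 (keratin 8) the brightest. Of the markers of other cell types, COL1A2 at 11.8, COL1A1 and COL3A1 of 7 fibroblast genes and CD3E of 5 leukocyte genes lay above it, and none of 5 endothelial genes did. The fibroblast markers' log2 signals summed to between 36.1 and 36.5 on the 0 h arrays, between 37.1 and 38.5 at 4 h and between 37.0 and 37.2 at 12 h. The tubule markers summed to between 104.6 and 108.9 at 0 h, between 104.6 and 106.7 at 4 h and between 103.0 and 105.9 at 12 h. All 11 tubule markers changed at some time by the F test described next. The part of either list in the results below was not tested. In bulk RNA, fewer dividing cells and less RNA per dividing cell cannot be told apart.

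The arrays differed by replicate number as well as by time, most of all in the mitotic genes. Replicate 1 gave the highest of the 3 signals at all 6 times for 24 of the 58 genes, against 6.41% of all 12362 genes. These were 10 of the 11 mitotic kinesins (all but KIF18B), 8 of the 11 CCAN genes, CENPF, SMC4, NCAPG, CDCA2, CDCA3 and KIF1BP, and none of the 19 other kinesins. Averaged over the 6 times, replicate 1 exceeded the mean of replicates 2 and 3 by 1.62 for CENPF, 1.49 for KIF20A and 1.34 for KIF11. The median excess was 1.17 for the mitotic kinesins, 0.67 for the CCAN genes, 0.02 for the other kinesins and 0.01 for all genes. In 23 of the 58 genes the replicate means spanned a wider range than the time means did, and the share of all genes was not counted. For CENPF, for example, the standard deviation between arrays of one time was 1.01, and it was 0.197 after the replicate means had been taken out.

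**Figure D1:**
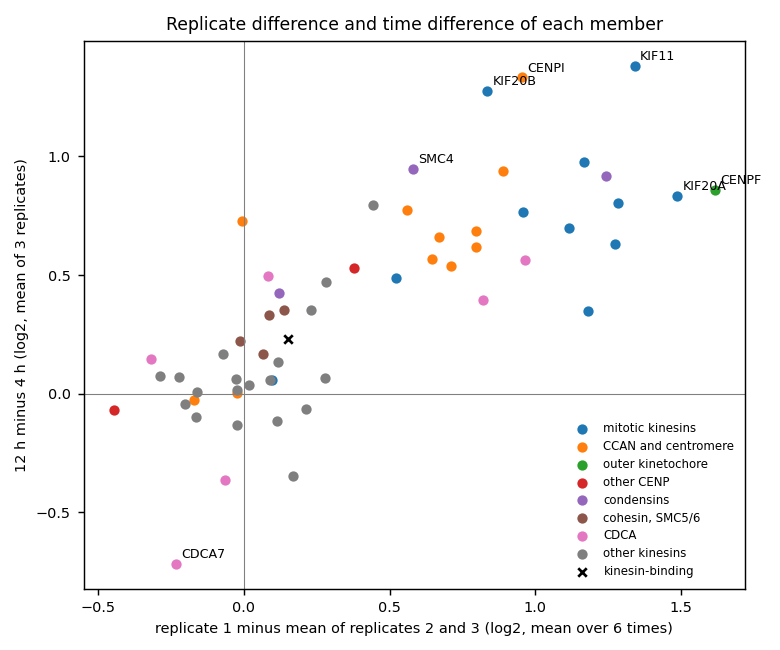
Each point is 1 of the 58 genes; the x axis gives the excess of replicate 1 over the mean of replicates 2 and 3, averaged over the 6 times, and the y axis the difference between 12 h and 4 h, both in log2 units and coloured by role. Mitotic kinesins and CENPF lie to the right (CENPF at 1.62, KIF11 at 1.34) and mostly above 0, while CDCA7 lies below 0 at -0.72.

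For this reason times were compared within replicate numbers: limma fitted 1 mean per time and 1 offset per replicate number to the 18 arrays, and a gene was called at a Benjamini-Hochberg adjusted p under 0.05 over all 27558 probe sets. Every adjusted p below is from this fit unless another fit is named, and ± marks the standard error of a log2 difference with n = 3 arrays per time. The p-values set each change against the spread left after the replicate offsets were taken out. They do not measure the full spread between the biological replicates. Over all times together, the moderated F test called 37 of the 58 genes, against 29.9% of all genes. These included 10 of 11 mitotic kinesins, 9 of 11 CCAN genes, CENPF, 2 of 3 condensin subunits and 8 of 19 other kinesins. Without the replicate offsets the F test called 11 of the 58, and the share of all genes called in that fit was not counted.

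Calls among the 58 genes were mostly falls at 4 h and mostly rises at 12 h. At 4 h, 17 of the 58 genes were lower than at 0 h and 3 were higher, against 13% and 10.8% of all genes. At 8 h, 4 were lower and 6 higher (6.63% and 7.81% of all genes), and at 12 h 3 were lower and 12 higher (4.38% and 4.47%). Measured from the 4 h arrays, 23 genes were higher at 8 h and 1 was lower (6.03% and 3.75%), and 28 were higher at 12 h and 2 lower (8.87% and 7.93%). The median difference of the 58 genes was -0.21 at 4 h, 0.13 at 8 h and 0.25 at 12 h against 0 h, and 0.35 at 12 h against 4 h, while the median of all genes stayed within 0.01 of 0 in each. These comparisons share arrays: those against 0 h share the 0 h arrays, and those against 4 h use the arrays that were low.

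Counted by sign alone, 30 of the 58 genes were lower at 4 h than at 0 h in all 3 replicate numbers, against 27% of all genes. At 12 h, 33 were higher than at 0 h in all 3 (23.7% of all genes), and 37 were higher than at 4 h in all 3 (22.2%). The groups' unadjusted signals separated fully less often. Against 0 h, 10 genes had all 3 values at 4 h below and 3 had all above (16.1% and 15.4% of all genes). At 12 h against 4 h, 11 had all values above and 2 all below (13% and 14.2%). The calls therefore rest on the differences within replicate numbers: without the replicate offsets 9 of the 58 were called at 4 h, 1 at 12 h and 3 at 12 h against 4 h. The shares of all genes without the offsets were not counted, so whether this drop is particular to the 58 cannot be told.

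**Figure D2:**
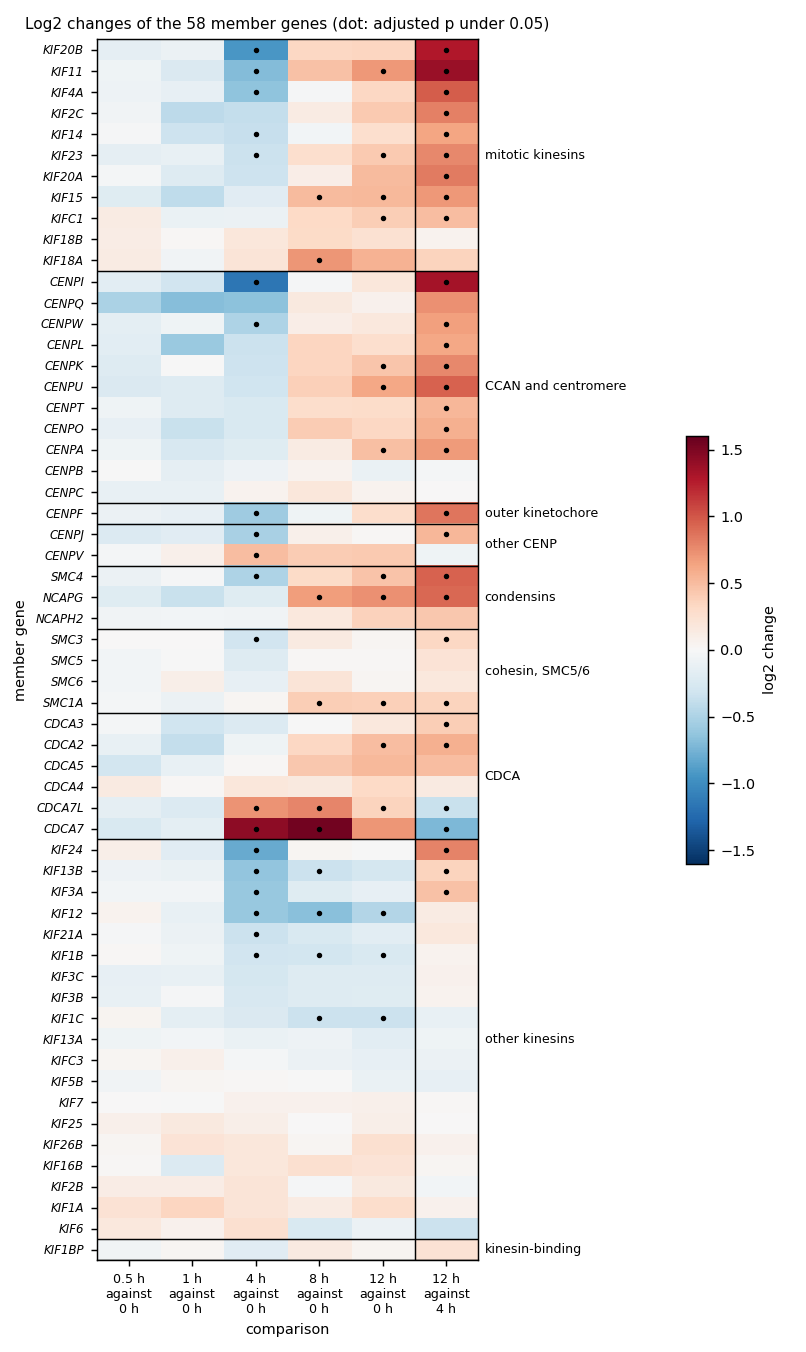
Log2 change of each of the 58 genes (y axis, ordered by role) in 6 comparisons (x axis), with red for higher and blue for lower in the later time and a dot where the adjusted p was under 0.05. The 4 h column is mostly blue for mitotic kinesins, CCAN genes, CENPF and SMC4, and the last column, 12 h against 4 h, is mostly red for the same roles; CDCA7 and CDCA7L run the other way.

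Among the mitotic kinesins, 5 of 11 were lower at 4 h (KIF20B, KIF11, KIF4A, KIF14 and KIF23) and none was higher, against 13% and 10.8% of all genes. By 12 h, 4 of 11 were higher than at 0 h (KIF11, KIF15, KIF23 and KIFC1), and 9 of 11 were higher than at 4 h (4.47% and 8.87% of all genes). All 11 were higher at 12 h than at 0 h in every replicate number, and all 11 were higher at 8 h than at 4 h in every replicate number (23.7% and 21.7% of all genes). The median difference of the 11 was -0.34 at 4 h and 0.42 at 12 h, both against 0 h. KIF2B, counted with the other kinesins, had a mean signal of 3.95 and did not share these signs. In replicate 1 it was lower at 12 h than at 0 h (3.91 against 4.16). It was also lower there at 8 h than at 4 h (3.49 against 3.80).

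KIF11 (Eg5), the motor that pushes spindle poles apart, gave 8.47, 7.16 and 7.15 in replicates 1, 2 and 3 at 0 h, 8.15, 6.52 and 6.05 at 4 h, 8.95, 7.93 and 7.31 at 8 h, and 8.86, 8.16 and 7.85 at 12 h. Replicate 1 was the highest array at each of these times, so the groups overlapped, yet every replicate number fell to 4 h and exceeded its 0 h value at 12 h. KIF11 fell by 0.69 ± 0.17 at 4 h (adjusted p = 0.0113) and was 0.69 ± 0.17 above 0 h at 12 h (adjusted p = 0.0259). From 4 h to 12 h it rose 2.61-fold, by 1.38 ± 0.17 (adjusted p = 0.000274), and the rise was 0.71 in replicate 1, 1.64 in replicate 2 and 1.80 in replicate 3.

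KIF20B, a kinesin of cytokinesis, fell most among the kinesins. Its signals were 8.01, 7.46 and 7.46 at 0 h, 7.82, 6.15 and 6.18 at 4 h, and 8.36, 7.96 and 7.65 at 12 h. At 4 h replicates 2 and 3 lay below every other array of the 3 times, and replicate 1 lay among the 0 h values. The fall at 4 h was by 0.93 ± 0.20 (adjusted p = 0.00464), made up of 0.19 in replicate 1 against 1.32 and 1.28 in replicates 2 and 3 on the log2 scale. The rise from 4 h to 12 h was 1.28 ± 0.20, or 2.42-fold (adjusted p = 0.00103), and at 12 h the gene stood 0.35 ± 0.20 above 0 h (adjusted p = 0.37).

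KIF4A, a chromosome-arm motor that works with condensin and shapes the central spindle, had signals of 7.68, 6.53 and 6.59 at 0 h, 7.20, 6.0 and 5.67 at 4 h, and 7.87, 7.06 and 6.87 at 12 h. It fell by 0.64 ± 0.12 at 4 h (adjusted p = 0.00188) and rose by 0.97 ± 0.12 from 4 h to 12 h, 1.97-fold (adjusted p = 0.000271), with 0.67, 1.06 and 1.20 in the 3 replicate numbers. KIF4A and KIF11 were the kinesins whose rise from 4 h to 12 h was still called when all arrays of any 1 replicate number were left out.

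KIF23 (MKLP1), the motor of the centralspindlin complex, gave 8.22, 7.37 and 7.16 at 0 h, 8.00, 6.97 and 6.76 at 4 h, and 8.60, 7.83 and 7.59 at 12 h. It fell by 0.34 ± 0.10 at 4 h (adjusted p = 0.0302), stood 0.42 ± 0.10 above 0 h at 12 h (adjusted p = 0.0251), and rose by 0.76 ± 0.10 between these times (adjusted p = 0.000433). KIF20A (MKLP2), which carries the passenger complex to the central spindle, rose by 0.83 ± 0.15 from 4 h to 12 h (adjusted p = 0.00295), with differences from 0 h that were not called (-0.33 at 4 h and 0.50 at 12 h, adjusted p = 0.166 and 0.0716). KIF2C (MCAK), a microtubule depolymerase at centromeres, behaved likewise: it rose by 0.81 ± 0.14 from 4 h (adjusted p = 0.00167).

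KIF15, which helps keep the spindle bipolar, was called above 0 h at 8 h (0.51 ± 0.12, adjusted p = 0.0124) and 12 h (0.52 ± 0.12, adjusted p = 0.017) without a called fall at 4 h. KIF18A, which dampens chromosome movement at metaphase, was above 0 h at 8 h alone among the calls against 0 h (0.70 ± 0.18, adjusted p = 0.0206). KIFC1 (HSET), the minus-end motor that focuses spindle poles, was 0.39 ± 0.10 above 0 h at 12 h (adjusted p = 0.0301). Here the 12 h values of 6.72, 6.22 and 6.24 all lay above the 0 h values of 6.21, 5.91 and 5.88. The KIFC1 call was nevertheless lost with any 1 of the 6 arrays compared left out (adjusted p up to 0.136). It was also lost without the replicate offsets (0.523). KIF14, which anchors citron kinase at the midbody, fell by 0.36 ± 0.09 at 4 h (adjusted p = 0.00976) and rose by 0.63 ± 0.09 from 4 h to 12 h (adjusted p = 0.000528). KIF18B, which trims astral microtubules, was called in no comparison, and its difference at 12 h was 0.24 with a 95% interval from -0.02 to 0.51.

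**Figure D3:**
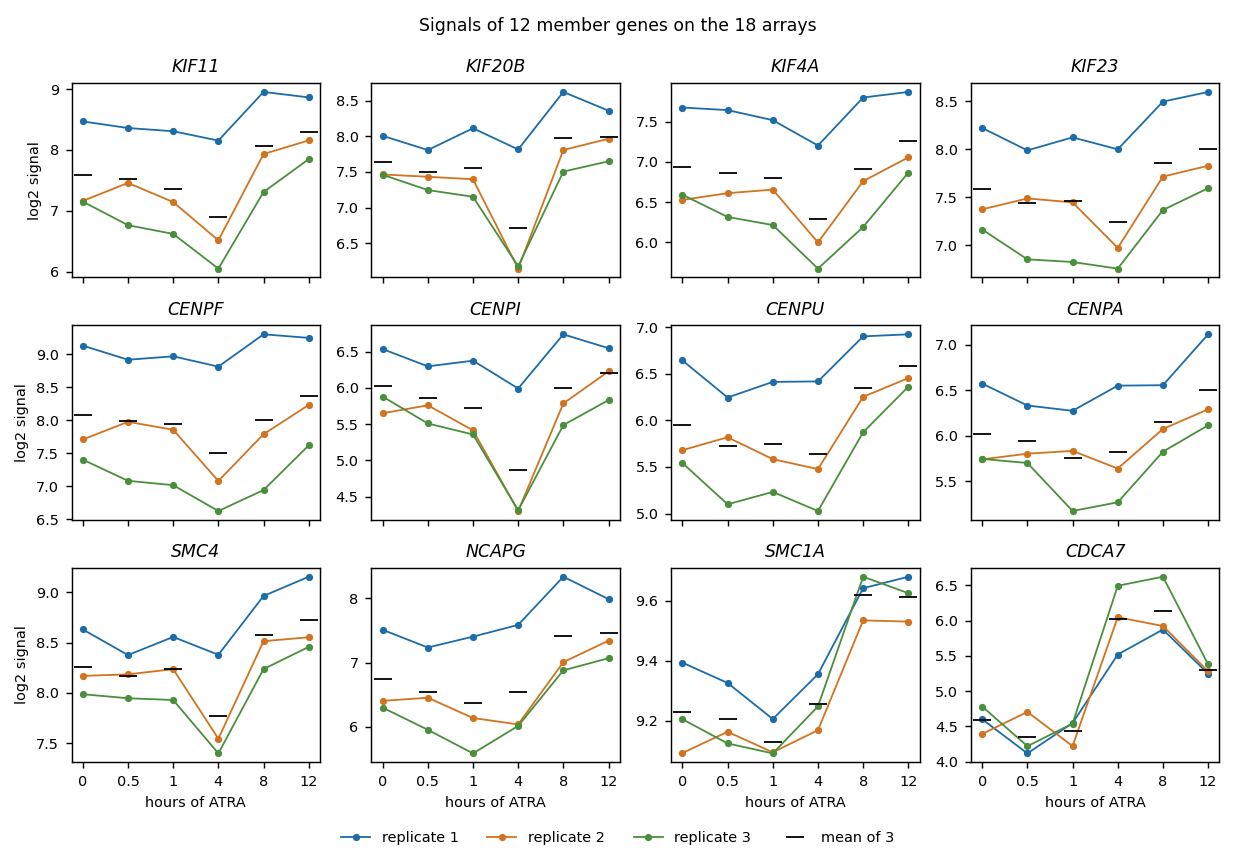
Log2 signal (y axis) of 12 genes on every array against hours of ATRA (x axis, 6 times at even spacing), with 1 coloured line per replicate number and a black bar for the mean of 3. Replicate 1 runs above the others in KIF11, KIF4A, CENPF and NCAPG at each time, and CDCA7 alone among the 12 has its means at both 4 and 8 h above those at the other times.

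Of the 11 CCAN and centromeric chromatin genes, CENPI and CENPW were lower at 4 h, CENPA, CENPK and CENPU were higher at 12 h, and 8 were higher at 12 h than at 4 h. The shares of all genes were 13%, 4.47% and 8.87%, so the count of 2 of 11 at 4 h lay near its share. The median difference was -0.31 at 4 h, 0.27 at 12 h and 0.66 from 4 h to 12 h. None of the 11 was called at 8 h against 0 h, whereas 7 were called higher at 8 h than at 4 h (6.03% of all genes).

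CENPI, a CCAN subunit, had the largest fall of all 58 genes at 4 h. Its signals were 6.54, 5.65 and 5.88 at 0 h, 5.99, 4.30 and 4.31 at 4 h, 6.74, 5.79 and 5.49 at 8 h, and 6.55, 6.23 and 5.83 at 12 h. Replicates 2 and 3 at 4 h lay below all other arrays, and by 8 h replicates 1 and 2 had passed their own 0 h values. The fall was 2.22-fold, by 1.15 ± 0.20 (adjusted p = 0.00111), and the rise from 4 h to 12 h was 2.52-fold, 1.33 ± 0.20 (adjusted p = 0.000773). At 12 h it differed from 0 h by 0.18 ± 0.20 (adjusted p = 0.699).

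CENPU, of the CENP-O, -P, -Q, -U group in the CCAN, ended above where it began. Its signals were 6.64, 5.68 and 5.54 at 0 h, 6.42, 5.48 and 5.03 at 4 h, and 6.92, 6.45 and 6.36 at 12 h, with each replicate number highest at 12 h of these 3 times. It was 0.62 ± 0.14 above 0 h at 12 h (adjusted p = 0.015) and 0.94 ± 0.14 above 4 h (adjusted p = 0.000689). CENPA, the histone H3 variant that marks the centromere, was 0.49 ± 0.13 above 0 h at 12 h (adjusted p = 0.0378) and 0.68 ± 0.13 above 4 h (adjusted p = 0.00321). The CENPA call against 0 h was lost in each of the 6 fits without 1 array (adjusted p up to 0.178). It was also lost without the replicate offsets (0.637).

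The CCAN subunit CENPK rose by 0.77 ± 0.11 from 4 h to 12 h (adjusted p = 0.000698), with all 3 values at 12 h above those at 4 h. CENPW, a histone-fold partner of CENPT, fell by 0.49 ± 0.11 at 4 h (adjusted p = 0.00695) and rose by 0.66 ± 0.11 from there to 12 h (adjusted p = 0.00172). CENPL, CENPO and CENPT, also CCAN subunits, rose by between 0.54 and 0.62 from 4 h to 12 h and were not called against 0 h at any time. CENPQ had the widest standard error of the group, 0.26, and its difference of -0.66 at 4 h was not called (adjusted p = 0.097).

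CENPC, the scaffold between centromeric chromatin and the rest of the kinetochore, stood apart from its group. Its signals were 9.0, 9.06 and 9.09 at 0 h, 9.04, 9.01 and 9.28 at 4 h, and 9.09, 9.13 and 9.11 at 12 h. It was called in no comparison, and its difference at 4 h was 0.06 with a 95% interval from -0.13 to 0.25. CENPB, which binds centromeric satellite DNA, was likewise called in none, with a difference of -0.08 at 4 h (95% interval from -0.41 to 0.26).

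CENPF, a large coiled-coil protein of the outer kinetochore that accumulates in G2, gave 9.13, 7.71 and 7.40 at 0 h, 8.81, 7.08 and 6.63 at 4 h, and 9.24, 8.23 and 7.62 at 12 h. Replicate 1 lay above every value of replicates 2 and 3, so the groups overlapped. CENPF fell by 0.57 ± 0.15 at 4 h (adjusted p = 0.0167) and rose by 0.86 ± 0.15 from 4 h to 12 h (adjusted p = 0.00216), to 0.29 ± 0.15 above 0 h (adjusted p = 0.328).

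The other CENP-named genes parted. CENPJ, which controls centriole length, fell by 0.52 ± 0.15 at 4 h (adjusted p = 0.0264), but its other, dimmer probe set gave -0.05 ± 0.19 (adjusted p = 0.91). CENPV, which associates with microtubules, rose by 0.49 ± 0.14 at 4 h (adjusted p = 0.0225), from 6.95, 7.29 and 7.38 at 0 h to 7.48, 7.74 and 7.86. All 3 values at 4 h lay above those at 0 h. The CENPV call was nevertheless lost in each of the 6 fits without 1 array (adjusted p up to 0.0824) and without the replicate offsets (0.211).

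Of the condensin subunits, SMC4, the ATPase core subunit shared by condensin I and II, had the smallest adjusted p of the 58 genes for the rise from 4 h to 12 h. Its signals were 8.63, 8.17 and 7.99 at 0 h, 8.38, 7.54 and 7.40 at 4 h, 8.96, 8.51 and 8.24 at 8 h, and 9.16, 8.55 and 8.46 at 12 h. Every value at 12 h lay above every value at 4 h. SMC4 fell by 0.49 ± 0.10 at 4 h (adjusted p = 0.00468), stood 0.46 ± 0.10 above 0 h at 12 h (adjusted p = 0.0178), and rose 1.93-fold between them, by 0.95 ± 0.10 (adjusted p = 0.000163). That rise was also called without the replicate offsets, on the 6 arrays compared alone, and without any 1 replicate number.

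NCAPG, a HEAT-repeat subunit of condensin I, gave 7.51, 6.40 and 6.30 at 0 h, 7.59, 6.04 and 6.02 at 4 h, 8.34, 7.01 and 6.88 at 8 h, and 7.99, 7.34 and 7.07 at 12 h. It rose by 0.67 ± 0.16 at 8 h (adjusted p = 0.0147) and 0.73 ± 0.16 at 12 h (adjusted p = 0.0149) against 0 h, and its difference at 4 h, -0.19 ± 0.16, was not called. NCAPH2, the kleisin of condensin II, was called in no comparison. Its difference of 0.37 ± 0.14 at 12 h had an adjusted p of 0.148, although the 12 h values of 6.17, 6.11 and 6.27 all lay above the 0 h values of 5.88, 5.61 and 5.94.

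Arrays of one time lay closer together for the cohesin and SMC5/6 subunits, with a median standard deviation of 0.0934 against 0.702 for the mitotic kinesins. The median excess of replicate 1 was 0.08, and it was 0.14 for SMC1A. SMC1A, a core subunit of cohesin, gave 9.39, 9.09 and 9.21 at 0 h, 9.35, 9.17 and 9.25 at 4 h, 9.64, 9.53 and 9.68 at 8 h, and 9.68, 9.53 and 9.62 at 12 h. Every value at 8 and 12 h lay above every value at 0 and 4 h. It rose by 0.39 ± 0.07 at 8 h (adjusted p = 0.00301) and 0.38 ± 0.07 at 12 h (adjusted p = 0.00634), and its difference at 4 h was not called (0.03 ± 0.07, 95% interval from -0.12 to 0.18).

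SMC3, the partner of SMC1A in cohesin, took another course, with 10.50, 10.51 and 10.53 at 0 h, 10.31, 10.11 and 10.21 at 4 h, and 10.60, 10.49 and 10.54 at 12 h. The 4 h values all lay below the others. It fell by 0.30 ± 0.08 at 4 h (adjusted p = 0.0129) and its difference from 0 h at 12 h was 0.03 ± 0.08 (adjusted p = 0.889). SMC6 rose by 0.34 ± 0.08 from 4 h to 8 h (adjusted p = 0.0259) and was not called against 0 h, and SMC5, its partner, was called in no comparison (-0.20 ± 0.11 at 4 h, adjusted p = 0.252).

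Of the CDCA genes, CDCA7 and CDCA7L rose where the mitotic genes fell. CDCA7, a zinc-finger protein that recruits the chromatin remodeler HELLS, gave 4.60, 4.39 and 4.78 at 0 h, 5.52, 6.05 and 6.49 at 4 h, 5.87, 5.92 and 6.62 at 8 h, and 5.25, 5.28 and 5.38 at 12 h. Every value at 4 and 8 h lay above every value at 0 and 12 h, and replicate 1 was the lowest at 4 h and 8 h. CDCA7 rose 2.69-fold to 4 h, by 1.43 ± 0.21 (adjusted p = 0.000337). By 8 h the rise had reached 2.92-fold, or 1.55 ± 0.21 (adjusted p = 0.000508). At 12 h it was 0.71 ± 0.21 and missed the threshold (adjusted p = 0.056), and the fall from 4 h to 12 h was by 0.72 ± 0.21 (adjusted p = 0.0335).

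CDCA7L, the paralog of CDCA7, rose by 0.72 ± 0.10 at 4 h, 0.78 ± 0.10 at 8 h and 0.36 ± 0.10 at 12 h (adjusted p = 0.000219, 0.000368 and 0.0425). Its other probe set gave 0.70, 0.79 and 0.37, all called. For the first probe set, the 12 h call was lost in each of the 6 fits without 1 array (adjusted p up to 0.176). It was also lost without the replicate offsets (0.149). The calls at 4 and 8 h held in all these fits. For CDCA7 and CDCA7L the 3 values at each of 4, 8 and 12 h lay above the 3 at 0 h. Measured from 1 h, both rises to 4 h were among 3 rises and 11 falls of the 58 genes (10.2% and 9.9% of all genes), and the third rise was that of KIF16B, a motor of early endosomes, by 0.41 ± 0.09 (adjusted p = 0.00609).

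CDCA2 (Repo-Man), which targets protein phosphatase 1 to chromatin at mitotic exit, was 0.50 ± 0.14 above 0 h at 12 h (adjusted p = 0.0496) and 0.56 ± 0.14 above 4 h (adjusted p = 0.0157). CDCA3, which promotes mitotic entry, rose by 0.40 ± 0.12 from 4 h to 12 h (adjusted p = 0.0462). CDCA5 (sororin), which protects cohesin on replicated chromatids, and CDCA4 were called in no comparison. Their differences at 12 h were 0.52 (95% interval from 0.12 to 0.91, adjusted p = 0.118) and 0.32 (from -0.03 to 0.68, adjusted p = 0.309).

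Of the 19 other kinesins, 6 were lower at 4 h (KIF24, KIF13B, KIF3A, KIF12, KIF21A and KIF1B), 4 at 8 h and 3 at 12 h, against 13%, 6.63% and 4.38% of all genes, and none was called higher than at 0 h at any of these times. Whether they differed from the mitotic kinesins was not tested. KIF12, KIF1B and KIF1C were the 3 genes of the 58 called lower at 12 h. These 12 h calls were lost in 5, 6 and 5 of the 6 fits without 1 array. KIF12, a kinesin expressed in kidney epithelium, gave 7.32, 7.53 and 7.34 at 0 h, 7.12, 6.66 and 6.59 at 4 h, 6.82, 6.65 and 6.70 at 8 h, and 6.98, 6.98 and 6.81 at 12 h. Every value from 4 h on lay below the 0 h values. It was lower by 0.60 ± 0.12 at 4 h, 0.67 ± 0.12 at 8 h and 0.47 ± 0.12 at 12 h on the log2 scale (log2 changes of -0.60, -0.67 and -0.47, adjusted p = 0.00326, 0.00296 and 0.0334).

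KIF1B, which carries mitochondria and vesicles, was lower at the same 3 times, with log2 changes of -0.31, -0.30 and -0.25 (standard error 0.07, adjusted p = 0.00647, 0.0124 and 0.0446). Its 12 h call was lost in each of the 6 fits without 1 array (adjusted p up to 0.158). It was also lost with quantile scaling (0.0504) and with equal array medians (0.0789). KIF1C, a transport motor of the same family, was lower at 8 h (-0.35 ± 0.09, adjusted p = 0.0185) and 12 h (-0.35 ± 0.09, adjusted p = 0.0272). For KIF1B and KIF1C all 3 values at 8 and 12 h lay below the 3 at 0 h.

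KIF13B, which moves membrane cargo toward the cell cortex, gave 8.45, 8.33 and 8.27 at 0 h, 7.97, 7.70 and 7.48 at 4 h, and 8.13, 8.13 and 7.94 at 12 h. The 4 h and 12 h values all lay below the 0 h values. KIF13B fell by 0.63 ± 0.10 at 4 h (adjusted p = 0.000468) and by 0.35 ± 0.10 at 8 h (adjusted p = 0.0321). At 12 h its difference from 0 h was -0.28 ± 0.10 (adjusted p = 0.103), after a rise of 0.35 ± 0.10 from 4 h (adjusted p = 0.0265).

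KIF3A, the kinesin-2 motor of transport into cilia, fell by 0.61 ± 0.13 at 4 h (adjusted p = 0.00448), from 8.42, 8.32 and 8.20 to 8.03, 7.49 and 7.60, with no overlap. Its partner KIF3B differed by -0.26 ± 0.09 at 4 h and missed the threshold (adjusted p = 0.0555), also with no overlap, and KIF3C by -0.28 ± 0.10 (adjusted p = 0.0733). KIF24, which acts at centrioles against cilium formation, fell by 0.80 ± 0.18 at 4 h (adjusted p = 0.00592), by 0.23 in replicate 1 and by 1.24 and 0.94 in replicates 2 and 3, and rose by 0.80 ± 0.18 from 4 h to 12 h (adjusted p = 0.00873). KIF21A, which limits microtubule growth at the cortex, fell by 0.34 ± 0.09 at 4 h (adjusted p = 0.0139), and its other probe set gave -0.27 ± 0.10 (adjusted p = 0.068).

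KIF5B, the conventional kinesin heavy chain and the brightest of the 58, was called in no comparison: its signals lay between 11.50 and 11.72 on the arrays at 0, 4, 8 and 12 h, and its difference at 12 h was -0.11 with a 95% interval from -0.27 to 0.05. KIF13A, KIF7, KIF25, KIF26B, KIF2B, KIF1A and KIFC3 were also called in none. KIF6, the dimmest gene, was called lower at 8 h than at 4 h (-0.50 ± 0.14, adjusted p = 0.0492), at signals between 2.37 and 3.33. That call was lost with quantile scaling (adjusted p = 0.0704), with equal array medians (0.0705), with array weights (0.235) and in 4 of the 6 fits without 1 array: those without replicate 1 or 2 of 4 h, or replicate 1 or 3 of 8 h (adjusted p up to 0.209). KIF1BP was called higher at 8 h than at 4 h (0.33 ± 0.08, adjusted p = 0.0257).

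At the first times no gene was called. At 0.5 h the count by limma was 0 higher and 0 lower, against 0.251% and 0.0243% of all genes, 0 genes had an unadjusted p under 0.05, and the lowest adjusted p was 0.781. At 1 h it was again 0 and 0 (0.995% and 0.299% of all genes), but 11 genes had an unadjusted p under 0.05 and all 11 were lower. The share of all genes under that unadjusted cut was not counted. Of all 12362 genes, 7015 lay below 0 h and 5347 above at 1 h, and of the 58, 45 below and 13 above. The 11 were led by KIF14 (-0.33 ± 0.09, adjusted p = 0.131), KIF15 (-0.41 ± 0.12, adjusted p = 0.166) and CENPL (-0.59 ± 0.17, adjusted p = 0.168). In all 3 replicate numbers 22 of the 58 genes were lower at 1 h (21.1% of all genes) and 5 were higher (13.3%). Weighting the arrays by their residual spread called 2 genes, CENPL and KIF14.

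Lists of genes that work with these proteins, drawn up by function, were counted in the same fit. The shares of all genes to read these counts against are 13% lower and 10.8% higher at 4 h, and 8.87% higher and 7.93% lower at 12 h against 4 h. Of 8 measured genes of the KMN network, the outer kinetochore's microtubule coupler, and of CENPA loading, 3 were lower at 4 h and 6 were higher at 12 h than at 4 h, with SPC25 at 1.37 ± 0.15 and NDC80 at 1.31 ± 0.17 (adjusted p = 0.000175 and 0.000433). Of 7 spindle checkpoint and passenger complex genes, 2 were lower at 4 h, BUB3 was higher, and 5 were higher at 12 h than at 4 h, led by the checkpoint kinase TTK at 1.40 ± 0.17 (adjusted p = 0.000266). SGO2 (shugoshin), which guards centromeric cohesion, fell by 0.84 ± 0.14 at 4 h (adjusted p = 0.00108) and rose by 1.23 ± 0.14 from there to 12 h (adjusted p = 0.000221).

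Of 11 mitotic kinases, cyclins and ubiquitin-ligase genes, 4 were lower at 4 h and 8 were higher at 12 h than at 4 h. CDK1, the kinase that drives mitosis, fell by 1.02 ± 0.15 at 4 h (adjusted p = 0.000387) and rose by 1.31 ± 0.15 to 12 h (adjusted p = 0.000188). Of 12 spindle and cytokinesis genes, 5 were lower at 4 h and 11 were higher at 12 h than at 4 h. RACGAP1, the partner of KIF23 in centralspindlin, fell by 0.68 ± 0.15 (adjusted p = 0.00661) and rose by 1.00 ± 0.15 (adjusted p = 0.000887). Of 8 cohesin regulators, 4 were lower at 4 h and 5 higher at 12 h than at 4 h, among them ESCO2, the cohesin acetyltransferase of S phase, at -0.62 ± 0.15 and 1.34 ± 0.15 (adjusted p = 0.0113 and 0.000188).

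The kinesin light chains, adaptors and dynein subunits had a mixed record: of 19, 6 were lower and 3 higher at 4 h, and 4 were higher and 2 lower at 12 h than at 4 h. BICD1, a cargo adaptor of dynein, fell by 0.97 ± 0.09 at 4 h (adjusted p = 2.64e-05) and KLC4, a kinesin light chain, by 0.57 ± 0.11 (adjusted p = 0.00176). Of 12 replication licensing and S phase genes, none was lower at 4 h, 3 were higher at 4 h, 9 at 8 h and 7 at 12 h, against 10.8%, 7.81% and 4.47% of all genes. CCNE2, a cyclin of S phase entry, rose by 0.85 ± 0.23 at 4 h and 1.52 ± 0.23 at 8 h (adjusted p = 0.0201 and 0.00109), and the licensing factor CDC6 by 1.48 ± 0.18 at 8 h (adjusted p = 0.000294).

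Among 17 measured regulators of G2 and M phase transcription, 5 were lower and 6 higher at 4 h, and 4 were higher and 1 lower at 12 h (4.47% and 4.38% of all genes). E2F4, a repressor-type E2F in resting cells, rose by 0.87 ± 0.12 at 4 h (adjusted p = 0.000187), and CDKN2C, an inhibitor of the cyclin D kinases, fell by 1.10 ± 0.15 (adjusted p = 0.00022). At 12 h MYBL2 and FOXM1, activators of mitotic genes, were higher by 0.79 ± 0.20 and 0.45 ± 0.11 (adjusted p = 0.0336 and 0.0265).

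**Figure D4:**
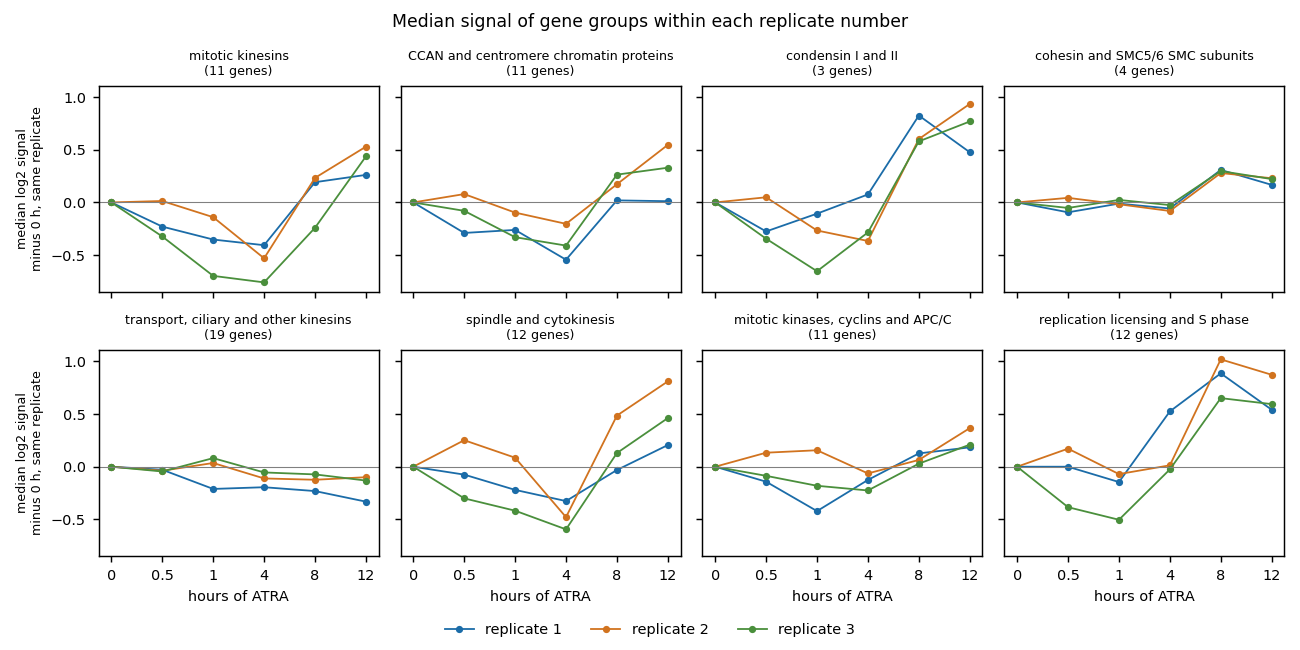
Median log2 signal of 8 gene groups (1 panel each) minus the same replicate number's 0 h median (y axis) against hours of ATRA (x axis), with 1 line per replicate number. Mitotic kinesins and spindle genes dip at 4 h and stand above 0 at 12 h, other kinesins lie below 0 from 4 h on, and replication genes lie highest at 8 h in each replicate number.

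The calls differ in how far they rest on single arrays. With each of the 6 arrays of a comparison left out in turn, 13 of the 20 calls at 4 h held in all 6 fits, 4 of 10 at 8 h, 1 of 15 at 12 h (SMC1A), 13 of 24 at 8 h against 4 h and 18 of 30 at 12 h against 4 h. The 15 calls at 12 h became 4, 1 and 7 without replicates 1, 2 and 3 of 0 h, and 8, 4 and 1 without replicates 1, 2 and 3 of 12 h. The 30 calls at 12 h against 4 h became 18 without 4 h replicate 2 and 19 without 12 h replicate 3. The 24 at 8 h against 4 h became 13 without 4 h replicate 2 and 14 without 8 h replicate 2, and the 10 at 8 h became 5 without 0 h replicate 2 and 6 without 0 h replicate 3. The 14 calls at 4 h against 1 h became 9 without 1 h replicate 2, and 8 and 6 without 4 h replicates 2 and 3. With all arrays of replicate 2 or all of replicate 3 left out, 5 genes were called at 12 h against 4 h and 4 at 4 h, whereas leaving out replicate 1, the one that stood apart, called 33 and 21.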

How the data were processed

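The deposited values are log2 signals, 1 per probe set and array, made by the authors with Transcriptome Analysis Console 2.0.0.9 per the submitters' processing notes; the summarization and normalization methods are not given in the sources used here. They were used as deposited, with no filter or offset. Of the 58 genes, 55 matched the RefSeq gene table by Entrez identifier. The files give no genome build, so no positions are stated, and no sequences were used.

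limma 3.58.1 in R 4.3.3 (lmFit and eBayes) was fitted to the 18 arrays with 1 mean per time and the replicate number as a fixed block (10 residual and 3.31 prior degrees of freedom). Tests were two-sided, Benjamini-Hochberg adjusted over 27558 probe sets per comparison, and called under 0.05. The F test covered the 5 differences from 0 h. Precision is limited by the number of arrays, and a difference had a median standard error of 0.126 in the 58 genes. On simulated shifts of 0.5, 1 and 2 (log2) at 4 h, the fit recovered 21 of 67, 56 of 67 and 64 of 66 probe sets and called 10 of 27358 unshifted ones. The simulated noise was normal and independent, with the same replicate offsets at every time, and few probe sets were shifted. In the data 1332 genes were called higher and 1601 lower of 12362 at 4 h, so these rates need not hold there.

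The 58 genes and the lists were chosen with earlier results of these data known. Values are given for a set of core genes whatever their result, for up to 10 called rises and falls per comparison, and for probe sets of a gene that disagree; other genes are given as counts per list, with up to 4 called genes named. Alternatives left out the block, the low signals, arrays or replicate numbers, rescaled or weighted the arrays, or used only the arrays compared.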

Additional observations from a re-analysis of the deposited data

Results flagged for a closer look

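For 3 of the 58 genes the changes from 0 h were called by limma in opposite directions at 4 h and at 12 h (Benjamini-Hochberg adjusted). The difference between those times was called too. It is made up of both changes from 0 h, so its call follows from theirs and adds no separate evidence. How many of all genes meet the same rule was not counted. These were the spindle motor KIF11, with 1.38 between 4 h and 12 h, the centralspindlin motor KIF23, with 0.76, and the condensin subunit SMC4, with 0.95, all on the log2 scale and higher at 12 h in 3 of 3 replicate numbers. With each of the 6 arrays compared left out in turn, the call at 12 h against 0 h was lost in 4 fits for KIF11 (adjusted p up to 0.136), in 5 for KIF23 (up to 0.125) and in 5 for SMC4 (up to 0.082). The call at 4 h against 0 h was lost in 3 fits for KIF11 (up to 0.0719), in 4 for KIF23 (up to 0.156) and in 0 for SMC4 (up to 0.0331), and that at 12 h against 4 h in 0 for each gene (up to 0.00404).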

How the results depend on the processing

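No value reversed: of 1805 values of the 113 called gene changes under the alternatives, 1154 kept direction and call and 651 kept direction and lost the call. Some alternatives could not reverse a value. Leaving out the block or the low signals, or using only the arrays compared, leaves each log2 change the same. Same-numbered arrays deviated together in most pairs (r from -0.05 to 0.51, over 0.1 in 39 of 45 pairs), and in 78 of 90 comparisons an array went best with its own number. The labels do not say what a number shares, and not every pair passed 0.1. Without the replicate block, 9, 5 and 1 of the 58 genes were called in the comparisons of 4, 8 and 12 h with 0 h. In those of 4 h with 1 h, 8 h with 4 h and 12 h with 4 h the counts were 7, 1 and 3, and the F test called 11. The shares of all genes under this and the other alternatives were not counted. The fit to only the 6 arrays compared called 4, 0, 1, 2, 0 and 1 in the same 6 comparisons. Array weights raised the count to 2 at 1 h, 22 at 8 h and 25 at 12 h, and a minimum mean signal of 5 raised it to 18 at 8 h. With 1 replicate number or 1 array left out, the counts against 0 h ranged from 4 to 22 for the 4 h arrays, from 1 to 9 for 8 h and from 0 to 9 for 12 h. Those against the step's earlier time ranged from 2 to 18 for 4 h against 1 h, from 0 to 24 for 8 h against 4 h and from 5 to 33 for 12 h against 4 h, and the F test from 4 to 35. Rescaling the arrays to equal medians or quantiles, or averaging a gene's probe sets, kept every count within 1.5 times the main one. With 3 arrays per time, log2 changes near 0.5 were often missed in the simulation and can be missed in the data.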
